A study of Apostichopus japonicus with 12 samples.

Results

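The models described here are stretches of the sea cucumber (Apostichopus japonicus) genome from which intestinal RNA was read, but which stand outside the deposited gene annotation and resemble no catalogued protein. They were chosen as the rows of the deposited FPKM table (fragments over model length and library size) that are numbered additions to the annotation, have neither a Swiss-Prot match nor a Pfam domain, and reached an FPKM of 1 or more in at least 3 of the 12 libraries. A pair of such models was left out by name, and no row of this kind past the filter lay on Scaffold6. A member is called here by its number in the table, as in model 766. This gave 2787 members of 26461 models in the table and of 15615 models that passed the same FPKM filter and were tested. Of the 6633 models placed outside the annotation, called assembled models here, 5611 had neither match nor domain, and 2822 of those fell below the filter. The members were thus chosen by their FPKM in these same libraries, and their overall level is a description only. A member that reached the filter only through a group in which it was high had to differ between groups, and called members of this kind are listed where the calls are given.

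The 12 libraries come from intestines taken after 6 h of treatment, with 3 libraries in each of 4 groups. Animals of the control stayed at 18 °C. Those of the high temperature group were warmed to 26 °C with dissolved oxygen at 7 mg/L, those of the low oxygen group had 3 mg/L at 18 °C, and those of the combined group had both 26 °C and 3 mg/L. The series text states 3 mg/L for the control too, which is the low oxygen level, so the control's oxygen is in doubt and the groups are used as labelled. RNA was extracted animal by animal, but the labels do not say whether animals of a group shared a tank, so p-values measure the spread between these samples, and in pieces of whole tissue fewer cells of a type and less RNA per cell cannot be told apart.

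Genome annotations start from gene predictions that favour long open reading frames and known proteins. RNA read outside such predictions can come from long noncoding RNAs, from untranslated ends that a prediction left off, from unrecognised protein-coding genes, or from mobile elements such as retrotransposons, which are copied through RNA. Long noncoding RNAs and mobile elements are known in other animals for low and uneven transcription. None of these classes can be assigned to a member without its sequence, and no sequence was read here.

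Recovered depth ran from 8.147 to 10.855 (in 1e6 fragments) per library. The members took 3.92% (combined 2) to 6.41% (control 1) of the fragments and 2787 of the 15615 tested models. In combined 1 and combined 3 the effective library size that sets the FPKM scale was 0.529 and 0.526 of the total, against 0.935 to 1.58 elsewhere, so that their FPKM values stand higher for the same share of fragments. Models with intestinal names (44 tested of 61 in the table) summed to 711 to 2398 FPKM in control libraries, 407 to 739 in high temperature libraries, 514 to 844 in low oxygen libraries and 715 to 880 in combined libraries. The protocol names no strand-marking step, so RNA from overlapping models on opposite strands cannot be told apart. Coordinates are the authors', counted from 1, on a genome build not given in the sources used here.

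**Figure D1:**
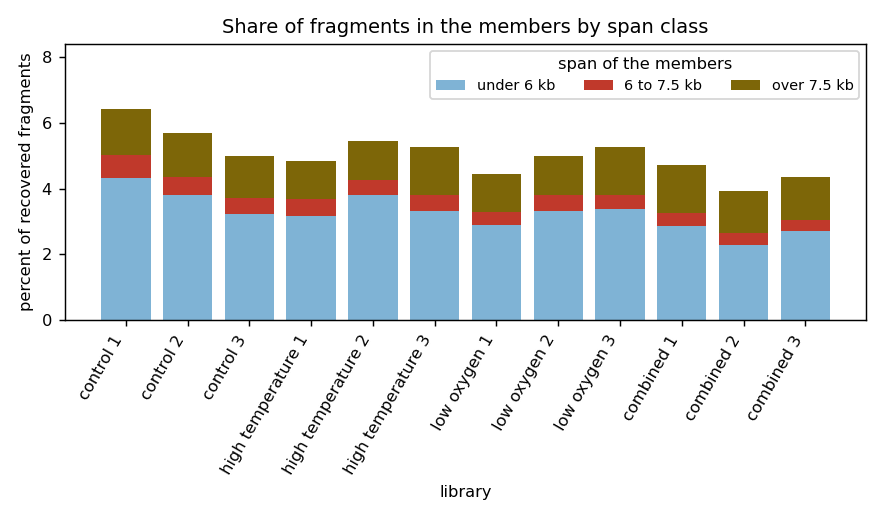
Share of all recovered fragments (percent, vertical axis) that fell in the members in each of the 12 libraries (horizontal axis), stacked by span class. The bars run from 3.92% in combined 2 to 6.41% in control 1, and members with a span under 6 kb make up most of every bar.

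The span of a member, from its first to its last base on the chromosome, sorted the members into 1931 under 6 kb, 142 from 6 to 7.5 kb and 714 over 7.5 kb. The shortest class was compact. Its median span was 2295 bases, its median model length (the transcribed part) 1654 bases, and a median of 93.5% of the span lay in the model. In the middle class the median span was 6797 bases, the model length 3070 and the share of the span in the model 46.9%. In the long class the median span of 29094 bases held a model of only 2010 bases, or 4.79% of the span. The classes were cut on span, so their difference in span follows from the cut. Their median model lengths ran from 1654 to 3070 bases.

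The longest member was model 5717, which ran over 1840546 bases of chromosome 6 (31953159 to 33793704, minus strand) with a model of 12268 bases. It was followed by model 216, with a span of 1529112 bases on chromosome 1 and a model of 6090 bases. Members in which the model fills the whole span, without a gap, made up 24.9% of the short class, 17.6% of the middle class and 2.66% of the long class. Over all members this share was 18.8%, against 2.42% of tested assembled models with a match, 16.4% of predicted genes without a match and 2.64% of predicted genes with one.

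**Figure D2:**
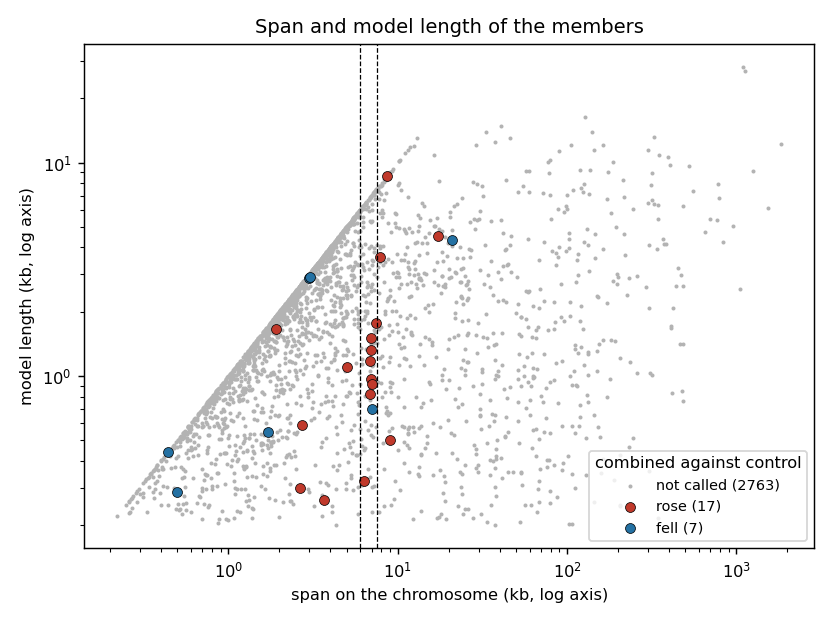
Model length (kb, log axis) against span on the chromosome (kb, log axis) for the 2787 members, with broken lines at 6 and 7.5 kb. Red points are the 17 members that rose and blue points the 7 that fell in the combined group against control. 8 of the red points lie between the lines, all with a model shorter than 2 kb.

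The members were weakly and unevenly transcribed compared with predicted genes, as were assembled models with a match. Their median mean FPKM over the 12 libraries was 2.16, close to the 2.05 of assembled models with a match and below the 4.99 of predicted genes with a match and the 3.62 of predicted genes without one. An FPKM of 1 or more in every library was reached by 26.6% of members and 22.5% of assembled models with a match, against 47.0% of all tested models. Predicted genes stood at 36.0% without a match and 56.3% with one. The median coefficient of variation over the 12 libraries was 91.7% for members, 88.5% for assembled models with a match and 62.4% for all tested models. It was 79.7% for predicted genes without a match and 54.0% for those with one, with no adjustment for level. Among the classes, the long one had the lowest median level at 1.59 FPKM and reached 1 FPKM in all libraries in 14.4% of its members, against 30.5% of the short class and 34.5% of the middle class.

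The filter edge was narrow: models 2114 and 6429 stood just inside, with 1.0 FPKM as the lowest of their 3 highest libraries, while models 1387 and 5106 stood just outside with 0.999 and 0.997. At the edges of the span classes, model 1340 measured 5988 bases, model 3271 6001, model 3156 7500 and model 5512 7519.

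A few members were among the abundant RNAs of the intestine. The most abundant, model 2367 (chromosome 16, 10305431 to 10320655, minus strand), lies 2667 bases before the start of a COMM domain-containing protein 10 gene on the other strand. It measured 1135, 372 and 401 FPKM in control libraries, 523, 327 and 694 at high temperature, 114, 383 and 1243 at low oxygen, and 2307, 1397 and 2714 in the combined group. The combined libraries were the 3 highest of the 12, but the difference from control (log2 1.90, SE 0.75) did not pass the test (limma adjusted p = 0.291). A further member, model 2366, has a span that overlaps that of model 2367 on the same strand, and it measured 313 ± 141 FPKM (SD, n = 3) in the control and 622, 751 and 5010.4 in the combined libraries (limma adjusted p = 0.268).

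By the Pearson correlation of log2(FPKM + 1) over the 12 libraries, the models most like model 2367 were another member, model 5316 (r = 0.974), and a troponin I gene (r = 0.940), which encodes a subunit of the calcium switch of muscle. The 4 muscle-named models, all tested, summed to 104 to 135 FPKM in control libraries, 92.1 to 137 in high temperature libraries, 133 to 157 in low oxygen libraries and 153 to 172 in combined libraries, and their part in the level of model 2367 was not tested. All these points share the libraries and their scaling.

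The second most abundant member, model 3328 (chromosome 2, 25068957 to 25071604, minus strand), had the opposite pattern. It measured 1472, 1077 and 4288 FPKM in control libraries, 56.9, 881 and 0.159 at high temperature, 131, 197 and 31.1 at low oxygen, and 21.7, 945 and 3.35 in the combined group. Every control library was above every treated library, yet the treated libraries spread so widely that the combined difference (log2 -5.39, SE 2.14) missed the threshold (limma adjusted p = 0.296). Its profile was closest to annexin A13 (r = 0.964), a membrane-binding protein known from intestinal epithelium in mammals, and to the member model 790 (r = 0.955). Its nearest gene, 11326 bases away on the other strand, carries a fatty acid-binding protein domain and correlated with it at r = 0.778.

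Other abundant members moved within the spread between libraries. Model 3550 (chromosome 21, 446234 to 449057) lies 13 bases from the end of a gene on the other strand that matches the lysosomal membrane glycoprotein LAMP1, and its mean FPKM was 569 ± 266 in the control and 604 ± 257 in the combined group (SD, n = 3 each). Model 5144 (chromosome 5, 4994567 to 4997578) measured 298 ± 202 FPKM in control libraries and 541 ± 164, 592 ± 465 and 613 ± 438 in the high temperature, low oxygen and combined groups. Model 3562 lies 153 bases from the end of a type IV collagen gene and measured 259.5, 129.8 and 59.0 FPKM in control libraries against 740.3, 125 and 633 in the combined group. In each of these 3 members the combined and control libraries overlapped.

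Model 2499 lies beside a heat shock gene and was high in combined 1 and combined 3. It stands on chromosome 17 (15160659 to 15161477), 862 bases after the end of evm_TU_Chr17_461 on the same strand, a small heat shock protein gene of the alpha-crystallin family, whose products hold unfolded proteins. It measured 15.2, 6.42 and 3.34 FPKM in control libraries, at most 26.4 at high temperature, at most 10.2 at low oxygen, and 2545, 16.4 and 206 in the combined libraries 1, 2 and 3. The gene itself measured 11090.0, 22272 and 2516 FPKM in these same libraries, so its highest library, combined 2, was the lowest of the 3 for model 2499. The difference of model 2499 from control was log2 4.70 (SE 1.38, limma adjusted p = 0.172), and the pair correlated at r = 0.570 over the 12 libraries.

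In the middle span class, the most abundant member was model 3682 (chromosome 21, 15344795 to 15351479), with 393 ± 285 FPKM in control libraries and 244 ± 112 in the combined group. Its profile was closest to an unnamed predicted gene on chromosome 6 (r = 0.903) and to the member model 4546 (r = 0.875). It was followed by model 589 with a mean of 91.1 FPKM over all libraries, model 6011 with 68.1 and model 437 with 67.4. In the long class, models 1202 and 1338 came after the chromosome 16 pair, with means of 206 and 132 FPKM. None of these 6 members was called in any comparison.

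The combined group was set against control to ask what warming and low oxygen together did. Of the members, 17 rose and 7 fell (limma on log2(FPKM + 1) across all tested models, Benjamini-Hochberg adjusted p under 0.05). Over all tested models 0.596% rose and 0.192% fell, so that the members' shares of 0.610% and 0.251% were near the background. All 3 combined libraries lay above all 3 control libraries in 155 members (5.56%, against 6.36% of all tested models) and below them in 192 (6.89%, against 8.06%). The median difference was log2 0.05 over the members and -0.05 over all models. An unadjusted p under 0.05 was reached by 349 members, of 2148 among all models. Scaling the libraries to equal FPKM totals moved the median to log2 -0.62 over all models and -0.45 over the members. It turned the split into 10 members that rose and 14 that fell. The count was 11 without combined 1, 38 without combined 2, 14 without control 2 and 14 without control 3.

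By span the calls were uneven. The middle class held 8 of the 17 rises and 1 of the 7 falls among its 142 members, so 5.63% rose, against the 0.596% of all models. The span limits came with the rule for the members, which was set with earlier results of these data known. This share is therefore a description only. The short class had 5 rises and 5 falls among 1931 members, and the long class 4 rises and 1 fall among 714. All 8 rises of the middle class were among its 53 members with a model shorter than 2 kb, a split chosen after the values were seen. However, the filter bears on this count directly. Over all members 17 reached an FPKM of 1 in the combined libraries only, of 31 such models in the whole table, and 9 of these 17 stood in the middle class. Such members could enter the list only by being high there. Of the 17 rises, 11 were of this kind: 7 of the 8 in the middle class (all but model 6626), models 4221, 5134 and 667 in the short class and model 6612 in the long class. Among the falls, model 5343 reached 1 FPKM in the control libraries only. Models 3398 and 3153 reached it outside the control in combined 2 only (1.98 and 1.44 FPKM), so they needed the control libraries to pass. For all these members the p-values given below are a description and no independent evidence of a difference. This holds in the other comparisons of the combined group or the control, and in the interaction, as well.

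**Figure D3:**
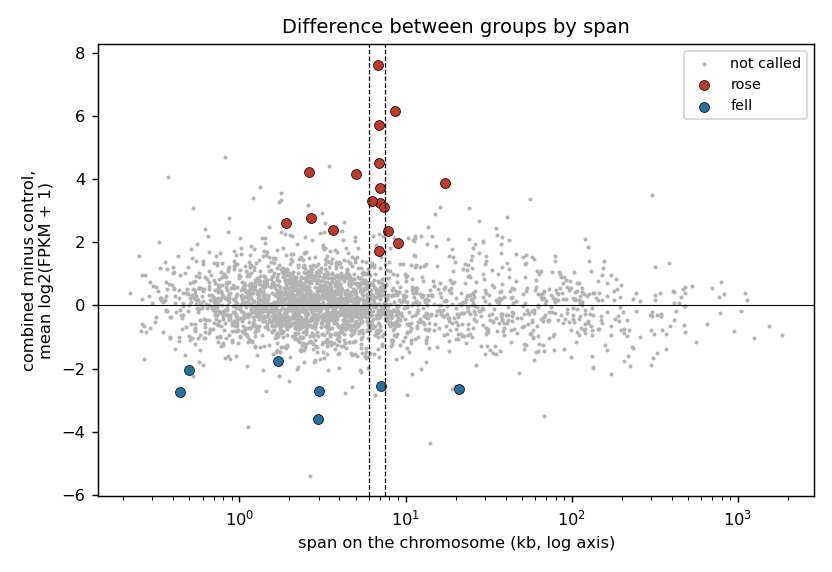
Difference between the combined and control groups (mean log2(FPKM + 1), vertical axis) against span on the chromosome (kb, log axis) for the 2787 members, with broken lines at 6 and 7.5 kb. Red points rose and blue points fell. The highest point, model 766 at log2 7.62, and 7 other red points stand between the broken lines.

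The 8 members of the middle class that rose were close to silent in the other 3 groups. They lie on 6 chromosomes, with spans of 6313 to 7440 bases and models of 322 to 1766 bases, so that 5.10% to 23.7% of the span lay in the model. Together they held 20 fragments in the 3 control libraries, 71 at high temperature and 11 at low oxygen, against 7037 in the combined group. No library outside the combined group exceeded 1.07 FPKM in any of them, and no combined library was below 2.05. The 7037 fragments were spread over combined 1 (1800), combined 2 (4515) and combined 3 (722), so all 3 libraries carried them. Of the 8 members, 7 reached 1 FPKM in the combined libraries only.

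The strongest was model 766, on the minus strand of chromosome 10 from 3184174 to 3190996, 1293 bases from the start of the gene for the gamma subunit of transcription factor IIA, which helps to place RNA polymerase II at promoters. It measured 0 FPKM in all 3 control libraries, 0.131, 0.118 and 0 at high temperature, 0.279, 0 and 0 at low oxygen, and 282, 332 and 80.3 in the combined group. In mean FPKM it was at least 690.5-fold above a floor of 3 fragments per control library (limma log2 difference 7.62 on the log2(FPKM + 1) scale, SE 0.47, adjusted p = 8.34e-06). This and the later folds against a floor hold on the FPKM scale, which stands higher in combined 1 and combined 3. Model 766 held 4068 fragments over the combined libraries and 0 in the control. The gene beside it measured 13.4, 17.8 and 22.3 FPKM in control libraries and 24.2, 17.2 and 32.3 in the combined group, which overlapped.

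On the plus strand of the same stretch (3184035 to 3190999) lies model 636. It measured 0 FPKM in all 3 control libraries, 0.112, 0.708 and 0 at high temperature, 0, 0 and 0.330 at low oxygen, and 60.2, 80.9 and 28.1 in the combined group, at least 197-fold above control (limma log2 5.72, SE 0.42, adjusted p = 3.63e-05). Since the libraries do not separate strands and the spans of models 766 and 636 coincide, the pair may share fragments and counts as 1 locus.

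Model 879 lies on chromosome 11 (9746195 to 9753095, plus strand) and measured 0.107, 0.196 and 0 FPKM in control libraries and 21.1, 59.7 and 10.2 in the combined group (limma log2 4.49, SE 0.50, adjusted p = 0.000736). In the high temperature and low oxygen libraries it stayed at or below 0.50. Its nearest gene, 1028 bases away and matched to a bacterial elongation factor Tu, measured 56.0, 69.1 and 0 FPKM in the combined libraries, so it was listed at 0 in a library where model 879 was not.

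Model 6626 lies on chromosome 9 (29498493 to 29505495, minus strand), 259 bases from the start of evm_TU_Chr9_1011 on the other strand, a sulfotransferase domain gene of the WSCD family. It measured 0, 0.167 and 0.491 FPKM in control libraries, 1.06, 1.07 and 0.280 at high temperature, 0 in all 3 low oxygen libraries, and 17.0, 11.6 and 16.1 in the combined group (limma log2 3.71, SE 0.34, adjusted p = 0.000183). The gene rose with it, from 0 in all 3 control libraries to 8.95, 45.5 and 27.2 FPKM (limma log2 4.56, SE 0.50, adjusted p = 0.000567), and the pair correlated at r = 0.940 over the 12 libraries.

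Model 6607, also on chromosome 9 (26060202 to 26067641, minus strand), had close values in the 3 combined libraries. It measured 0.142, 0.0434 and 0 FPKM in control libraries and 7.71, 7.78 and 9.29 in the combined group (limma log2 3.12, SE 0.30, adjusted p = 0.000199). Its nearest gene, 2271 bases away on the other strand, matches the tubulin polyglutamylase TTLL9, which adds glutamate chains to microtubules. That gene also rose, from 5.39, 4.47 and 1.59 FPKM to 129, 118 and 18.3 (limma log2 3.90, SE 0.65, adjusted p = 0.0145).

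The remaining 3 were lower. Model 3515 on chromosome 20 measured 0 FPKM in all 3 control libraries and 7.57, 22.3 and 3.87 in the combined group, at least 13.1-fold higher (limma log2 3.31, SE 0.48, adjusted p = 0.00544). Its model of 322 bases held 86 fragments over the 3 combined libraries, and its span lies over another assembled model on the other strand. Model 1747 on chromosome 14 measured 8.89, 12.5 and 6.06 FPKM in the combined group against at most 0.102 in the control (limma log2 3.25, SE 0.35, adjusted p = 0.000548), and no annotated gene stood within 91153 bases of it. Model 5881 on chromosome 7 measured 3.39, 2.41 and 2.05 in the combined group and at most 0.190 in the control (limma log2 1.73, SE 0.30, adjusted p = 0.0208), a call that was lost without combined 1, without control 2 or without control 3, where the adjusted p rose to at most 0.0923.

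Between any pair of the 8, Pearson r over the 12 libraries ran from 0.905 to 0.996, as a description of members chosen for the same rise. Combined 2 was the highest combined library for 5 of the 8, combined 1 for 2 and combined 3 for 1. Leaving out combined 1 and combined 3 together, a setting chosen after the data were seen, left 7 of the 8 called, with model 5881 at an adjusted p of 0.142 (limma, with the lone combined 2 assumed to vary like the other groups).

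**Figure D4:**
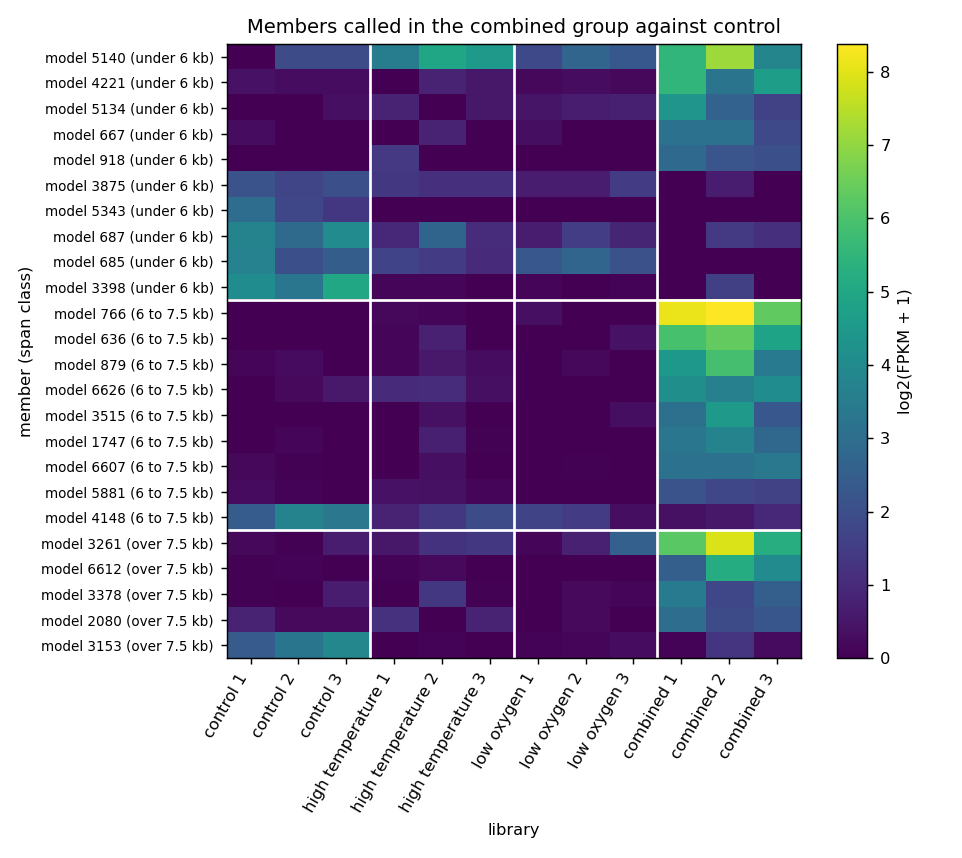
Level of the 24 members called in the combined group against control (rows, by span class) in each of the 12 libraries (columns), as log2(FPKM + 1) by colour. The 8 rows from model 766 to model 5881 are dark in the control, high temperature and low oxygen libraries and brighter in all 3 combined libraries. Models 3398 and 3153 are brightest in the control.

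In the long class 4 members rose. Model 3261 (chromosome 2, 6802473 to 6811105, minus strand) is a block of 8633 bases without a gap, and lies 2 bases from the end of evm_TU_Chr2_236 on the other strand, a xanthine dehydrogenase gene, whose enzyme makes uric acid from purines. It measured 0.131, 0.0355 and 0.610 FPKM in control libraries, 0.438, 1.35 and 1.55 at high temperature, 0.116, 0.695 and 4.96 at low oxygen, and 73.6, 239 and 36.6 in the combined group (limma log2 6.15, SE 0.70, adjusted p = 0.000768). The gene measured 0, 0 and 0.378 FPKM in control libraries and 12.8, 29.6 and 2.09 in the combined group, which missed the threshold (limma log2 3.29, SE 0.80, adjusted p = 0.0970), and the pair correlated at r = 0.920. With 2 bases between them and no strand in the data, how fragments at this junction were shared out was not tested.

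Model 6612 (chromosome 9, 26839995 to 26857172) measured at most 0.152 FPKM in the 9 libraries outside the combined group and 4.77, 35.2 and 15.4 in it (limma log2 3.87, SE 0.52, adjusted p = 0.00316). Model 3378 on chromosome 2 measured 10.2, 2.42 and 4.75 FPKM in the combined group, with 1.54 in high temperature 2 as the highest other library (limma log2 2.37, SE 0.49, adjusted p = 0.0488). Model 2080 on chromosome 15 measured 6.91, 2.75 and 3.74 against at most 0.752 in the control (limma log2 1.97, SE 0.41, adjusted p = 0.0498). The calls of models 3378 and 2080 were lost without any 1 of 5 libraries (combined 1 or 3, or any control), with adjusted p up to 0.172 and 0.197.

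In the short class 5 members rose. Model 4221 (chromosome 3, 34918797 to 34923834) measured 0.340, 0.208 and 0.204 FPKM in control libraries and 44.5, 8.32 and 24.98 in the combined group (limma log2 4.15, SE 0.50, adjusted p = 0.00136), and stayed at or below 0.798 elsewhere. Model 5140 (chromosome 5, 4062637 to 4065276) differed from the others in that it was already present with warming alone. It measured 0, 2.81 and 2.76 FPKM in control libraries, 10.4, 30.1 and 21.4 at high temperature, 2.56, 5.60 and 4.0 at low oxygen, and 44.7, 142 and 13.1 in the combined group (limma log2 4.22, SE 0.77, adjusted p = 0.0261). The high temperature libraries lay above every control library, but this comparison did not pass the threshold. The call was lost without combined 1 or any control library, with adjusted p up to 0.112. The gene 6768 bases away on the same strand, with a leucine rich repeat, correlated with it at r = 0.861.

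The 3 others of the short class were lower. Model 667 on chromosome 10 measured 7.69, 7.75 and 2.62 FPKM in the combined group and at most 0.226 in the control (limma log2 2.60, SE 0.41, adjusted p = 0.0108). Model 5134 on chromosome 5, 1464 bases from the end of a matrix metalloproteinase gene, measured 19.7, 5.22 and 2.12 FPKM in the combined group and at most 0.256 in the control (limma log2 2.77, SE 0.56, adjusted p = 0.0444). Model 918 on chromosome 11 had 21 fragments over the combined libraries and none in the control, at least 4.10-fold higher (limma log2 2.37, SE 0.41, adjusted p = 0.0208). All 3 calls were lost without combined 1 or without control 3, and those of models 5134 and 918 also without control 1 or control 2, with adjusted p up to 0.0567, 0.132 and 0.0955. That of model 5134 was lost without combined 2 as well.

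Among the 7 members that fell, models 3398, 3153, 5343 and 3875 measured under 2 FPKM in every treated library. Model 3398 (chromosome 2, 42195405 to 42198379, minus strand) lies 1 base from the end of a gene on the other strand that matches the organic cation transporter SLC22A3. It measured 15.8, 8.85 and 31.5 FPKM in control libraries, at most 0.113 at high temperature and 0.107 at low oxygen, and 0, 1.98 and 0 in the combined group (limma log2 -3.61, SE 0.50, adjusted p = 0.00424). The transporter gene itself measured 2.17, 20.8 and 89.9 FPKM in control libraries and at most 1.03 in the combined group, was not called, and correlated with it at r = 0.884.

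Model 3153 (chromosome 2, 21613336 to 21634286, plus strand) measured 4.33, 8.495 and 13.8 FPKM in control libraries and 0.0468, 1.44 and 0.191 in the combined group (limma log2 -2.65, SE 0.43, adjusted p = 0.0140, lost without combined 1, control 2 or control 3). On the other strand its span lies over the assembled models 3318 and 3319, which are not members and correlated with it at r = 0.792 and 0.945. The nearest gene, 2927 bases away, matches an enoyl-CoA delta isomerase of fatty acid oxidation and correlated at r = 0.830.

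The other 5 lie on chromosomes 3, 6, 10 and 23. Model 685 (chromosome 10, 441 bases, 192 bases before the start of a uracil-DNA glycosylase gene of the SMUG1 type) measured 12.2, 3.13 and 4.60 FPKM in control libraries and 0 in all 3 combined libraries, at least 5.68-fold lower (limma log2 -2.75, SE 0.44, adjusted p = 0.0114, and 0.0509 without combined 1). Model 5343 on chromosome 6 had 31 fragments in the control and none in any of the 9 other libraries, so that it passed the filter through the control alone, at least 2.03-fold lower in the combined group (limma log2 -2.05, SE 0.39, adjusted p = 0.0370). Model 4148 (chromosome 3, the faller of the middle class) measured 4.48, 12.4 and 9.04 FPKM in control libraries and 0.291, 0.454 and 0.891 in the combined group (limma log2 -2.57, SE 0.49, adjusted p = 0.0348). For these members the control libraries were all above the combined ones.

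Model 687 on chromosome 10, 11 bases after the end of an unnamed gene on the same strand, measured 12.5, 6.49 and 15.4 FPKM in control libraries and 0, 1.70 and 1.21 in the combined group (limma log2 -2.71, SE 0.56, adjusted p = 0.0488). Model 3875 on chromosome 23 measured 3.43, 2.38 and 3.15 FPKM against 0, 0.578 and 0 (limma log2 -1.77, SE 0.36, adjusted p = 0.0454). The calls of models 687 and 3875 were lost without combined 1, combined 3 or any control library, with adjusted p up to 0.197 and 0.165. That of model 5343 was lost without any combined library, control 1 or control 2 (adjusted p up to 0.124), and that of model 4148 without combined 1, combined 2, control 2 or control 3 (up to 0.138).

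Of the 24 members called, 11 were called with each of the 6 libraries left out in turn. These were models 766, 636, 879, 6626, 6607, 1747, 3515, 3261, 6612, 4221 and 3398. The alternative count model (voom in limma, on recovered fragments) called 11 of the 24, all of them rises and among them the 8 of the middle class, and none of the 7 falls. Every called member lies outside the annotated genes. The nearest gene was tested for 13 of the 24 members, with models 766 and 636 sharing theirs. It was called for 2, as the sulfotransferase gene beside model 6626 and the TTLL9 gene beside model 6607 rose. Over all tested models 0.596% rose.

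The comparisons among treated groups asked whether the combined group went beyond each single stress. They share the combined libraries with the comparison above. Against high temperature, 11 members rose and none fell, where 0.205% of all models rose and 0.0128% fell. The median over the members was log2 0.12, against -0.01 over all models. Of 2787 members 212 had an unadjusted p under 0.05, as did 1038 of all 15615 tested models. The combined libraries lay above every high temperature library in 150 members (5.38%, against 4.97% of all tested models) and below in 116 (4.16%, against 4.53%). Scaling to equal totals put the median at log2 -0.62 over all models and -0.40 over the members, and gave 7 that rose and 1 that fell. Of the 11 rises, 7 were in the middle class: model 766 (log2 7.51, SE 0.47, limma adjusted p = 1.99e-05), model 636 (5.41, SE 0.42), model 879 (4.29, SE 0.50), model 3515 (3.18, SE 0.48), model 6626 (3.16, SE 0.34), model 6607 (3.09, SE 0.30) and model 1747 (3.03, SE 0.35). The other 4 were model 3261 (log2 5.42, SE 0.70), model 4221 (4.01, SE 0.50), model 6612 (3.81, SE 0.52) and model 667 (2.43, SE 0.41). Of the 11, 9 reached 1 FPKM in the combined libraries only (all but models 6626 and 3261). Model 6626 needed the combined libraries to pass the filter as well. All 11 had also risen against control, and in each of them the combined libraries lay above every high temperature library. The call of model 3515 was lost without high temperature 1 or 3 (adjusted p up to 0.0811), and that of model 667 without these or combined 1 or 2 (up to 0.176). Without combined 1 and combined 3 together, the count was 20.

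Against low oxygen, 16 members rose and 2 fell, where 0.397% of all models rose and 0.0256% fell. The median over the members was log2 0.25, against -0.02 over all models. Of 2787 members 322 had an unadjusted p under 0.05, as did 1931 of all 15615 tested models. The libraries of the 2 groups did not overlap in 247 members that were higher in the combined group (8.86%, against 7.71% of all tested models) and in 129 that were lower (4.63%, against 7.86%). Scaling to equal totals put the median at log2 -0.72 over all models and turned that of the members to -0.34, with 7 that rose and 2 that fell. Of the 16 rises, 10 reached 1 FPKM in the combined libraries only. Models 6626, 2080, 918 and 3990 needed the combined libraries to pass the filter as well. All 8 members of the middle class were again among the rises, from model 766 (log2 7.51, SE 0.47, limma adjusted p = 1.00e-05) down to model 5881 (1.84, SE 0.30, limma adjusted p = 0.0175). Models 6626, 1747 and 5881 had no fragment in any low oxygen library and were at least 57.8-fold, 58.4-fold and 14.6-fold higher in the combined group. The count was 10 without combined 1, and 9, 10 and 11 without low oxygen 1, 2 and 3. Beside members named further on, the calls lost without 1 or more of these 4 libraries were those of models 5881, 667, 2080 and 918 (each without all 4 in turn) and of model 3515 (without low oxygen 1 or 2), with adjusted p up to 0.141.

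Of the members called against low oxygen, models 2730, 3990 and 6466 were not called against control. Model 2730 (chromosome 18, 17744130 to 17746139) lies 918 bases after the end of a sodium and glucose cotransporter gene. It measured 2.48, 2.76 and 2.04 FPKM in control libraries, 0.241, 0.542 and 1.42 at low oxygen and 6.36, 4.57 and 14.1 in the combined group (limma log2 2.35 against low oxygen, SE 0.42, adjusted p = 0.0323). Model 3990 (chromosome 3, 8932348 to 8957683) measured at most 0.420 at low oxygen and 2.75, 3.10 and 5.46 in the combined group (limma log2 2.03, SE 0.38, adjusted p = 0.0419), a call lost on leaving out any 1 of the 6 libraries. That of model 2730 was lost without combined 1, low oxygen 1 or low oxygen 2 (adjusted p up to 0.176). In both, the combined libraries lay above every low oxygen library.

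Model 6466 (chromosome 9, 22629043 to 22637912) was high at low oxygen alone, and only through these libraries did it pass the filter. It measured 0.431, 0.264 and 0.0647 FPKM in control libraries, 0.186, 0.421 and 0.387 at high temperature, 8.60, 2.75 and 12.7 at low oxygen and 0.699, 0.454 and 0.535 in the combined group. It fell between low oxygen and the combined group (limma log2 -2.34, SE 0.44, adjusted p = 0.0392), but was not called between low oxygen and control, and the call was lost without 5 of the 6 libraries in turn (all but low oxygen 2), with adjusted p up to 0.196. Its nearest gene, an unnamed gene 1519 bases away on the other strand (evm_TU_Chr9_762), measured 30.5, 0.254 and 44.9 FPKM at low oxygen and at most 0.716 in any other library. The other fall was model 685, from 3.84, 5.62 and 3.26 FPKM to 0 (limma log2 -2.36, SE 0.44, adjusted p = 0.0379), lost without any 1 of the 6 libraries.

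With warming alone, 2 members fell and none rose, where 0.0256% of all models fell and 0.0448% rose. They were model 3398 (limma log2 -4.03, SE 0.50, adjusted p = 0.0125) and model 3153, which measured 0, 0.0677 and 0 FPKM at high temperature (limma log2 -3.15, SE 0.43, adjusted p = 0.0160). With low oxygen alone, 1 member fell, model 3398 (limma log2 -4.06, SE 0.50, adjusted p = 0.0438), and it was the single call over all models, or 0.0064%. An unadjusted p under 0.05 was reached by 170 of 2787 members with warming and 217 with low oxygen. Of all 15615 tested models 1027 and 984 reached it. Without overlap with control, 122 members were higher with warming (4.38%, against 6.87% of all tested models) and 185 lower (6.64%, against 7.24%), while 93 were higher with low oxygen (3.34%, against 7.58%) and 257 lower (9.22%, against 8.66%). These comparisons share the control libraries with the combined comparison. Models 3398 and 3153 needed the control libraries to pass the filter, so the p-values of their calls are a description only. The call of model 3153 was lost without control 2 or 3 or any high temperature library, that of model 3398 at high temperature without control 3 or any high temperature library, and that at low oxygen without control 1 or 3 or any low oxygen library.

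The interaction asked whether warming acted differently at low oxygen than in the control water, as the warming difference at low oxygen less the warming difference at the control's oxygen. It was called in 4 members, all positive and all of the middle class, where 0.0512% of all models were called. These were model 766 (log2 7.39, SE 0.67, limma adjusted p = 0.00136), model 636 (5.27, SE 0.59, adjusted p = 0.00695), model 6626 (3.43, SE 0.49, adjusted p = 0.0217) and model 6607 (3.15, SE 0.42, adjusted p = 0.0181). Of these, models 766, 636 and 6607 passed the filter through the combined libraries alone. Model 6626 reached 1 FPKM in fewer than 3 other libraries, so it needed the combined libraries as well. An unadjusted p under 0.05 was reached by 216 of 2787 members and 1024 of all 15615 tested models. The first 2 were called with each of the 12 libraries left out in turn, while model 6626 was lost without any low oxygen or high temperature library or control 2 or 3 (adjusted p up to 0.108), and model 6607 without any low oxygen library, high temperature 1 or 3, or control 2 (up to 0.083), and voom on recovered fragments called none of the 4. The doubt over the control's oxygen bears on this comparison in particular.

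Models named as retroelements were set beside the members as the class of known transcribed elements chosen for comparison. By their descriptions 46 such models were tested, 20 of them assembled and 26 predicted. In the combined group 5 rose against control and none fell. The rises were 10.9% of the 46, against 0.596% of all tested models. All 5 were assembled, and 3 of the 5 had reached 1 FPKM in the combined libraries only. Models 4943 and 4268 reached it in fewer than 3 other libraries, so all 5 needed the combined libraries to pass the filter. Their share and p-values are therefore a description only. The median of the list was log2 -0.09, against -0.05 over all models. Model 4943, matched to a retrovirus-related Pol polyprotein, measured 0.344, 0.268 and 0.281 FPKM in control libraries and 28.7, 34.6 and 30.7 in the combined group (limma log2 4.64, SE 0.38, adjusted p = 6.81e-05). Model 4268, matched to the Gag-Pol polyprotein of the yeast element Ty3, measured 0.669, 1.501 and 0.0557 FPKM against 23.0, 68.9 and 9.69 (limma log2 4.0, SE 0.58, adjusted p = 0.00544).

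The spans of 3 of these 5 models fell in the range of 6 to 7.5 kb as well: 6789 bases for model 4943, 6787 for model 4268 and 7040 for model 1277. Over the 40 pairs of 1 of the 8 members and 1 of the 5 retroelement-type models, Pearson r over the 12 libraries ran from 0.867 to 0.996, as a description of models that all rose in the same libraries. The same 5 rose against high temperature, and they and a predicted gene with a reverse transcriptase domain and a ribosomal protein S27 domain (evm_TU_Chr10_702, limma log2 2.26, SE 0.39, adjusted p = 0.0276) rose against low oxygen. Of the list, model 4943 alone was called in the interaction (log2 4.06, SE 0.53, limma adjusted p = 0.0181). Members have no match to such elements by the rule, and whether the 8 are copies of any could not be looked at without sequence.

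By position, 2701 of the 2787 members (96.9%) overlapped no annotated gene. Genes on the other strand lay inside the span of 58 members (2.08%), all of them longer than 7.5 kb, where they made up 8.12% of the class. A further 28 members overlapped genes of their own strand only, and 35 of the 58 held genes of both strands. In each of the 144 pairs of such a member and an other-strand gene, the gene lay wholly within the span of the member, and 27 of the 58 held a single one. The median span of the 58 was 300660 bases, of which a median of 1.55% was in the model. No member of the short or middle class had an other-strand gene inside its span.

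The other-strand genes and the members around them were weakly correlated. In 48 of the 144 pairs the gene was tested, and r over the 12 libraries had a median of 0.065 (interquartile range -0.108 to 0.234), with none over 0.8. None of the tested genes was called in any of the 6 comparisons, and none of the 58 members was either. In the comparison with the most calls, combined against control, 0.788% of all tested models were called. No call among so few models is near this share. For the 1897 members that overlap no gene and whose nearest gene was tested, the median r with that gene was 0.147.

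The widest collection belonged to model 5752 (chromosome 7, 2040726 to 2523940, plus strand), whose span of 483215 bases holds 12 genes of the other strand while its model has 2639 bases. It measured 0.618, 3.90 and 0.399 FPKM in control libraries and 0.693, 0.0801 and 0.0787 in the combined group. The most abundant of the 12 genes matches GADD45 alpha, a growth arrest and DNA damage response protein, and measured 33.7, 24.9 and 19.2 FPKM in control libraries and 32.9, 23.1 and 50.1 in the combined group. It correlated with model 5752 at r = 0.159, and the Ran-binding protein 3, HECTD3 and TM2D1 genes at 0.042, -0.098 and 0.320. In model 3175 (chromosome 2, 27976478 to 28326494) the other-strand gene matches phytanoyl-CoA dioxygenase, which starts the breakdown of branched fatty acids, and r was 0.510. In model 3936 (chromosome 23, 7150672 to 7407777) a tensin homolog gene gave -0.304, and in model 84 (chromosome 1, 8084105 to 8189006) an unnamed gene gave -0.097.

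Overlap with other assembled models on the other strand was commoner. It was found for 788 members, 316 of the short, 32 of the middle and 440 of the long class. In 362 cases both models were members, and in 302 of these at least 80% of the shorter span was covered. The median r of these 362 pairs over the 12 libraries was 0.221. Models 766 and 636 are such a pair.

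Where members overlapped no gene, they stood more often after the end of the nearest gene than before its start. Of the 2701, 376 (13.9%) lay 0 to 100 bases after the end of a gene on the other strand, with a median of 15 bases between them. Among tested predicted genes, 1.76% stood in that place relative to their nearest gene. On the gene's own strand 57 members (2.11%) lay there, against 0.807% of predicted genes. Of the 376, 30.1% fill their span without a gap. The protocol names no strand-marking step, so the basis of their strand is not known. In all, 70.8% of the members lay after the end of the nearest gene rather than before its start, against 50.2% of the predicted genes. Abutting the end of a gene did not go with a shared profile as a rule. Of the 376 members, 362 had a tested gene, with a median r of 0.208 and 38 over 0.8. Predicted genes in the same place had a median of 0.381, with 4 of 186 pairs over 0.8. Models 3261, 3398 and 3550 are members of this kind, with r of 0.920, 0.884 and -0.386.

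**Figure D5:**
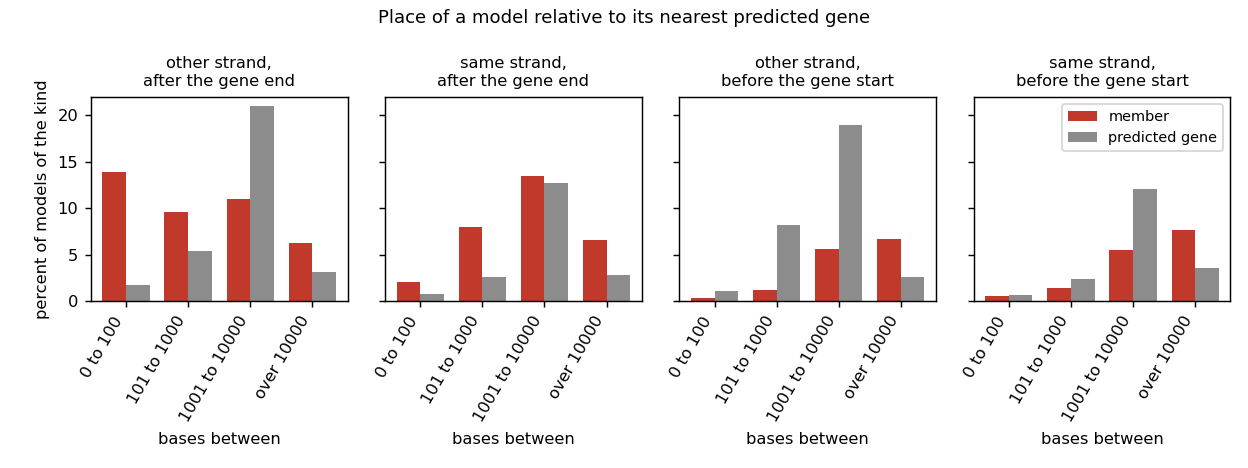
Place of a model relative to the nearest predicted gene: bases between them (horizontal axis) and the percent of the 2701 non-overlapping members (red) or of tested predicted genes (grey) found there. The panels give the strand and the side of the gene. The red bar at 0 to 100 bases after the end of a gene on the other strand stands at 13.9%, and the grey bar at 1.76%.

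Members also stood in rows. With runs counted as neighbours that have no annotated gene between them, they formed 2141 runs, and 1039 members stood in runs of 2 or more. The longest held 16 members on chromosome 6, all beginning between evm_TU_Chr6_802, which ends at 30936725, and evm_TU_Chr6_803, which starts at 31675937. It runs from model 5700 (30959259) to model 5715 (31664699), on both strands, and several of its members lie within the spans of others. None of the 16 was called.

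In this run model 5478 (31032968 to 31037642, plus strand) was the only member with a library over 50 FPKM, and it measured 55.3, 6.32 and 1.70 FPKM in control libraries and 6.39, 2.28 and 11.4 in the combined group. Models 5480 and 5704 were lowest in the combined group, the former with 2.82, 2.23 and 0.642 FPKM in control libraries against 0.0789, 0.0821 and 0, the latter with 2.46, 1.19 and 0.620 against 0 in all 3. Model 5703 measured 6.86, 1.503 and 0.467 FPKM in control libraries against 0.146, 0.379 and 0.0992. In these 3, and in models 5483 and 5713, the control libraries all lay above the combined ones, which was so in this direction for 6.89% of all members and 8.06% of all tested models.

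Over the genome the members were spread across all 23 chromosomes that hold any, with 1424 on the plus and 1363 on the minus strand. Their share of the tested models of a chromosome ran from 12.4% to 33.2%.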

How the data were processed

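RNA-seq of intestine gave 12 libraries in 4 groups of 3, assigned by sample title. The deposited table holds FPKM made by the authors (fragments over model length and library size, per the file headers), made with an aligner, a counting tool and a build not given in the sources used here. Whole fragments were recovered for 100.0% of values within 0.001 of a fragment. Annotated genes came from the deposited GFF3, whose 19828 genes matched the table by name, start and end.

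Models at FPKM 1 or more in at least 3 libraries (15615) were analysed as log2(FPKM + 1) with limma 3.58.1 in R 4.3.3 (lmFit and eBayes with a variance trend, a mean per group over all 12 libraries, both sides), adjusted by Benjamini-Hochberg over all tested models and called at an adjusted p under 0.05. The script was checked on simulated data. An exact permutation test of 3 libraries against 3 cannot go below 0.1. Intervals were counted with pandas 2.3.3 and numpy 2.4.6 (Python 3.11.15), and figures drawn with matplotlib 3.10.9.

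Members, span limits and lists were chosen with earlier results of these data known. The genes named are, per comparison, the 6 largest rises and falls without overlap between libraries (3 of each sign for the interaction), the 8 most abundant members, the 4 most abundant and the 2 longest of each span class, the 8 members around the most abundant other-strand genes, the longest run, and the 2 models most like the most abundant member of each class. Other called members and nearest genes were named after their values were seen. Alternatives were other filters, pseudocounts, scalings and weights, voom on recovered fragments, the replicate number as a block, and each library left out. Lists of nerve and germ line markers were summed as well: nerve models (16 tested of 24) came to 129 to 336 FPKM in the control and 299 to 300.3 in the combined group, germ line models (2 tested of 3) to 6.13 to 13.9 and 3.03 to 11.5. How reads of near-identical copies were counted is not given, so members that resemble one another are uncertain as single models.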

Additional observations from a re-analysis of the deposited data

Results flagged for a closer look

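In 4 members the response to warming differed between low oxygen and the control water by a test of that difference itself (the limma interaction term): model 766 by log2 7.39, model 636 by 5.27, model 6626 by 3.43 and model 6607 by 3.15. In each the control, high temperature and low oxygen libraries were all at or below 1.07 FPKM and the combined libraries were higher. Models 766, 636 and 6607 passed the filter on low values through the combined libraries alone. Model 6626 reached 1 FPKM in fewer than 3 other libraries (1.06 and 1.07 in high temperature 1 and 2), so it needed them too. The test of these 4 members is therefore no independent evidence of the difference. Models 766 and 636 lie on opposite strands of 1 stretch of chromosome 10, so they are not independent. With voom on recovered fragments the adjusted p was 0.414, 0.619, 0.404 and 0.404, and which oxygen level the control water had is in doubt.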

How the results depend on the processing

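No named difference changed sign under the alternatives tried: of the single-member values, 368 kept their side of the threshold and 148 lost it. The counts of called members moved as follows, main value first, and the cause was not tested. High temperature against control, 2: 0 with a filter at FPKM 5, with only the groups compared or with a pseudocount of 0.1, 1 with voom, 30 with library weights, and 0 to 3 with a library left out. Low oxygen against control, 1: 0 with either of these, with no filter, with a pseudocount of 5, with voom or with the replicate block, 55 with library weights, and 0 to 1 with a library left out. Combined against control, 24: 8 with the filter at 5, 7 with only the groups compared, 11 with a pseudocount of 0.1, 11 with voom, and 11 to 38. Combined against high temperature, 11: 5, 2 and 7 with the filter at 5, only the groups compared and a pseudocount of 0.1, 20 without combined 1 and combined 3 (added after the data were seen, with the lone combined 2 assumed to vary like the other groups), and 10 to 13. Combined against low oxygen, 18: 6 with the filter at 5, 7 with only the groups compared, 9 rescaled to equal totals, and 9 to 22. Interaction, 4: 1 with the filter at 5, a pseudocount of 0.1 or rescaling, 11 with library weights, 0 with voom, 18 without combined 1 and combined 3, 2 with the replicate block, and 2 to 8. The replicate block gave 18 calls for combined against control. Deviations of same-numbered libraries were weakly correlated (r -0.17 to 0.18), which cannot show whether the numbers pair samples, and the labels do not say. The middle class held 6 to 8 of the rises against control in every setting but the filter at 5, which left 4. With equal FPKM totals the median over all models was, for the combined group, log2 -0.62 against control and high temperature. It was -0.72 against low oxygen, and -0.76 for the interaction. Classes by model length instead of span held 81 members at 6 to 7.5 kb (142 by span) and 79 above (714 by span), and no other-strand gene overlap (58) covered 50% of a member's span, which left 0. Shallow members limit the precision: Model 918 rests on 21 fragments.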
